A study of Mus musculus with 2 samples.

Results

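The miR-23/27/24 twin clusters are a pair of short chromosomal stretches that each encode a miR-23, a miR-27 and a miR-24 hairpin in the same order. Mir23a, Mir27a and Mir24-2 lie on mouse chromosome 8, and Mir23b, Mir27b and Mir24-1 lie on chromosome 13. The genes were selected by symbol, by a rule that uses no measured value, though earlier results of these data were known. Of the 1973 microRNA genes in the count tables, 6 belong to the clusters: Mir23a, Mir27a, Mir24-2, Mir23b, Mir27b and Mir3074-1. Mir3074-1 is annotated on the strand opposite Mir24-1, so reads from Mir24-1 appear as opposite-strand counts at Mir3074-1. Under their own IDs, Mir24-1 and Mir3074-2 were not analysed here. The samples were 2 libraries of RNAs under 30 nucleotides from whole liver of B6NCrl mouse embryos at embryonic day 14.5, with no treatment or genotype named in the labels. They form a single group, biological replicates 1 and 2, so no comparison between conditions was possible. The labels call each sample a single liver yet also of pooled sex, and give both the same donor ID, so it is unclear how independent the samples are as animals, and the p-values below compare the reads of these 2 libraries against counting error alone. The liver marker Mir122 was the most abundant gene, at 97349 CPM (the usual depth-scaled read count) in replicate 1 against 110371 CPM in replicate 2.

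A microRNA is cut from a hairpin precursor whose 2 arms, named 5p and 3p, can each give a mature RNA. Bases 2 to 8 of the mature RNA, the seed, pair with target mRNAs, and microRNAs with the same seed can repress many of the same targets. The clusters are transcribed as common precursors and are known in blood vessel cells, where miR-23 and miR-27 take part in vessel growth, and in blood cell formation, where the chromosome 8 cluster is activated by the myeloid transcription factor PU.1. The chromosome 13 cluster has been linked in fetal liver to the repression of Smad proteins of the TGF-beta pathway. miR-23 is also known to repress mitochondrial glutaminase, miR-27 to repress regulators of lipid metabolism, and miR-24 to repress cell cycle genes.

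The mature sequences are shown first because they decide which reads can be assigned to 1 cluster. They are the RefSeq entries for GRCm38.p6, written 5′ to 3′ with the seed in capitals. All 8 hairpins of both clusters, Mir24-1 and Mir3074-2 included, had an entry among the 1005 hairpins of that table. The 3p products come first, with the product of Mir3074-1. miR-23b-3p is not printed, and the 3p arms of the miR-23 pair were not compared base by base.
miR-23a-3p: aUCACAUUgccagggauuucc
miR-27a-3p: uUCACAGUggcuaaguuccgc
miR-27b-3p: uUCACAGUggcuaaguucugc
miR-24-3p: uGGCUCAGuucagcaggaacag
miR-3074-5p: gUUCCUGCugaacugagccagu
The 5p products of the same hairpins follow.
miR-23a-5p: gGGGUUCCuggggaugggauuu
miR-23b-5p: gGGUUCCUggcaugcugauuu
miR-27a-5p: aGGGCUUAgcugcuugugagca
miR-27b-5p: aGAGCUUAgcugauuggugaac
miR-24-2-5p: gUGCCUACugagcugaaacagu
miR-24-1-5p: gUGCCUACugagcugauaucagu

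The 3p products of Mir27a and Mir27b have the same seed, UCACAGU, and differ at 1 of 21 bases. The substitution is C19U, from miR-27a-3p to miR-27b-3p, with positions counted from 1 at the 5′ end, so the first 18 bases are identical. A read that covers only those 18 bases matches both hairpins. The 5p products of Mir27a and Mir27b differ at 8 of 22 bases. Searched against all 1005 hairpins, the first 19 bases of miR-23a-3p were the shortest stretch from its 5′ end found in Mir23a alone, and 19 bases were likewise needed for miR-27a-3p and for miR-27b-3p. Mir23a and Mir23b shared a longest stretch of 20 bases, as did Mir27a and Mir27b. The 5p arms of Mir23a, Mir23b, Mir27a and Mir27b matched only their own hairpin from the shortest length tried, 16 bases.

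The products miR-24-3p and miR-3074-5p cannot be assigned in this way. miR-24-3p is present in full in both Mir24-2 and Mir24-1, and no length of it matched 1 hairpin alone. The hairpins below are printed to show that both contain the whole mature miR-24-3p, marked in capitals.
Mir24-2: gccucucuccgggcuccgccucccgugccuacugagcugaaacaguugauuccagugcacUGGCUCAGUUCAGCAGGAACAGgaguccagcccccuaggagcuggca
Mir24-1: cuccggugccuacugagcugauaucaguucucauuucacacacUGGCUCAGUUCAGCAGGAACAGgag
The longest stretch these hairpins share was 28 bases and extends past the capitals on both sides. Their 5p products share the first 16 bases and differ at 5 of the 22 bases compared, the first difference being U17A from miR-24-1-5p to miR-24-2-5p, so 17 bases were enough to tell them apart. The Mir3074-1 hairpin contains the reverse complement of the whole Mir24-1 hairpin, and its mature product, in capitals here, overlaps miR-24-3p of the other strand by 20 bases.
Mir3074-1: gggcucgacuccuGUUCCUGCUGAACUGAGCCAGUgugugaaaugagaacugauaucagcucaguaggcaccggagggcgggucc
miR-3074-5p is present in full in Mir3074-1 and in Mir3074-2. Reads that mapped to more than 1 place were in no gene count and made up 34.0% and 33.1% of all reads in replicates 1 and 2. The tables give 1 count per hairpin and strand, not per arm, so the counts at Mir24-2, at Mir3074-1 and on its opposite strand leave out any read that fits both copies and are lower limits. Reads of miR-23a-3p, miR-27a-3p or miR-27b-3p that end before base 19 fit more than 1 hairpin, so the miR-23 and miR-27 counts leave them out as well. How many reads of each family were lost in this way was not tested.

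The clusters differ in size and surroundings (GRCm38, mm10). On chromosome 8 the hairpins run from 84208518 to 84208921, a span of 404 bases on the plus strand, with gaps of 79 and 56 bases between neighbouring hairpins. Mir23a (84208518 to 84208592) and Mir27a (84208672 to 84208758) lie in no other annotated gene, and Mir24-2 (84208815 to 84208921) overlaps the lincRNA Gm26532 by 2 bases. On chromosome 13 the hairpins run from 63300484 to 63301275, a span of 792 bases with gaps of 154 and 423 bases. This stretch lies inside the protein-coding gene 2010111I01Rik on the same strand and, on the other strand, inside an intron of Fancc. Mir23b (63300484 to 63300557) is intronic in 2010111I01Rik. Mir27b (63300712 to 63300784) and Mir24-1 (63301208 to 63301275) each lie in an exon of at least 1 annotated transcript of it. Mir3074-1 (63301199 to 63301283) is on the minus strand.

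**Figure D1:**
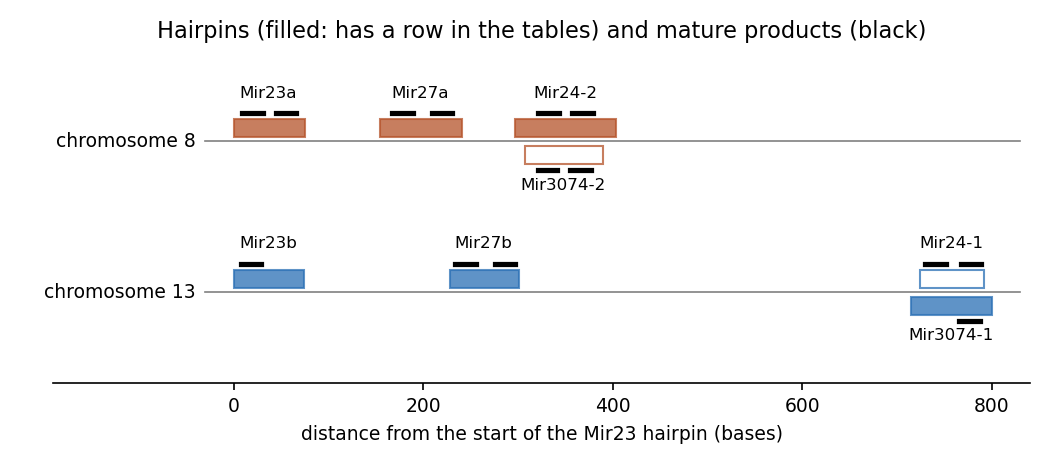
Map of the hairpins on chromosome 8 (brown) and chromosome 13 (blue), with distance in bases from the start of the Mir23 hairpin on the horizontal axis, plus-strand hairpins above and minus-strand hairpins below each line; filled boxes have a row in the count tables and black bars mark mature products with an entry in the sequence table. The span is 404 bases on chromosome 8 and 792 bases on chromosome 13, where Mir24-1 itself has no filled box.

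The first comparison asked how strongly each gene of the clusters was represented in this liver. The miR-23 genes were the most abundant by far, the miR-27 genes were lower, and the miR-24 genes were lowest by reads that map to 1 place. Mir23a reached 11724 CPM in the first library and 11521 CPM in the second, or 11622 ± 144.0 CPM (SD, n = 2), from 27598 and 36091 counts. It held rank 26 of the 1973 genes in each library, and its mean was 8.94-fold below that of Mir122. Mir23b had 7731 and 8465 CPM, or 8098 ± 518.6 CPM, at ranks 34 and 33. Each miR-23 gene alone outnumbered the miR-27, miR-24 and Mir3074-1 genes of both clusters added together, in both libraries.

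Mir27b had 1149 and 1082 CPM (1116 ± 46.9 CPM, ranks 88 and 89). Mir27a had 451.2 and 407.9 CPM (429.6 ± 30.6 CPM, ranks 125 and 129). The order of the chromosomes was thus the reverse of that seen for miR-23. Mir24-2 had 234.1 and 204.3 CPM (219.2 ± 21.1 CPM, ranks 153 and 155), from 551 and 640 counts. Mir3074-1 had 173.8 and 180.03 CPM (176.9 ± 4.44 CPM, ranks 164 and 163). The strand of Mir24-1, read as the opposite-strand count at Mir3074-1, had 54 and 84 counts, or 22.9 and 26.8 CPM of the same-strand totals (24.9 ± 2.74 CPM).

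From Mir23a through Mir23b, Mir27b, Mir27a, Mir24-2 and Mir3074-1 down to the strand of Mir24-1, the order was the same in both libraries. At each step the lower of the 2 values of a gene was above the higher value of the next, so no neighbours in this order overlapped. With 2 values against 2, a two-sided exact permutation test cannot go below p = 0.333, so no test over samples was made. Levels of different genes are compared as numbers of reads, each from 1 short RNA, and were not scaled by hairpin length. How well a small RNA enters a library can depend on its sequence, so the order of the counts need not be the order of molecules in the tissue.

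**Figure D2:**
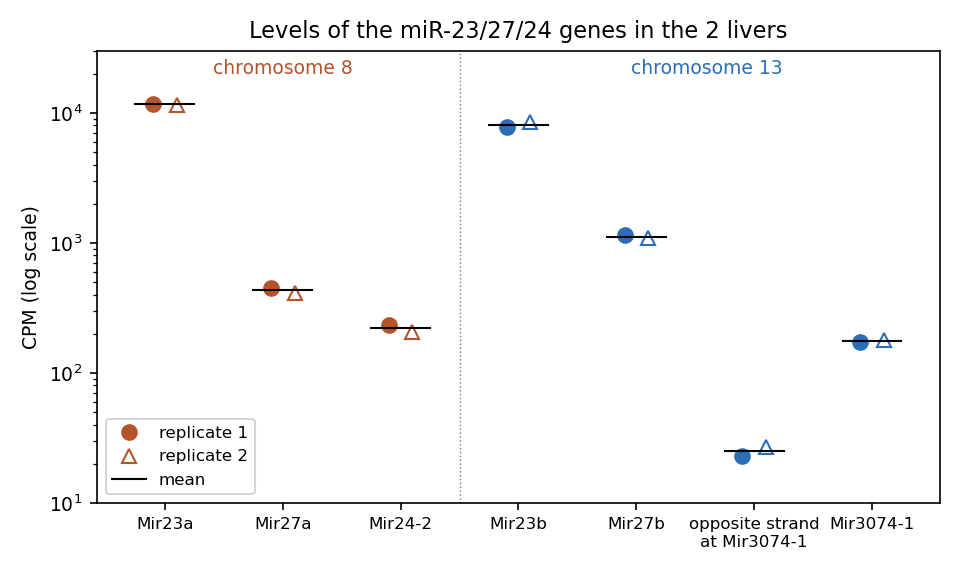
CPM of each gene (vertical log axis) in replicate 1 (filled circles) and replicate 2 (open triangles), with the mean as a line, for the chromosome 8 cluster in brown and the chromosome 13 cluster in blue. Mir23a and Mir23b sit highest, at 7731 to 11724 CPM, Mir27b lies above Mir27a, and the opposite strand at Mir3074-1 is lowest at 22.9 and 26.8 CPM.

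Together the clusters held 2.13% and 2.17% of the same-strand counts of replicates 1 and 2. Nearly all of the chromosome 8 counts came from Mir23a. In replicate 1 Mir23a made up 94.5% of its cluster (95% Clopper-Pearson interval 94.2 to 94.7), Mir27a 3.64% (3.42 to 3.86) and Mir24-2 1.89% (1.73 to 2.05). In replicate 2 the shares were 94.95% (94.7 to 95.2), 3.36% (3.18 to 3.55) and 1.68% (1.56 to 1.82). The chromosome 13 cluster was less one-sided. Mir23b made up 86.8% of it in replicate 1 (86.4 to 87.3) and 88.4% in replicate 2 (88.0 to 88.8). Mir27b made up 12.9% (12.5 to 13.4) and 11.3% (10.9 to 11.7). The strand of Mir24-1 gave 0.258% (0.194 to 0.336) and 0.280% (0.223 to 0.347). These intervals, and those below, cover counting error only, since PCR copies are not independent molecules.

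The second comparison set each chromosome 8 gene against its chromosome 13 partner within a library, where both counts share the same depth and no scaling enters. Mir23a exceeded Mir23b by 1.52-fold in replicate 1 (95% exact interval 1.49 to 1.55) and by 1.36-fold in replicate 2 (1.34 to 1.38). For miR-27 the chromosome 13 gene was the higher: Mir27b exceeded Mir27a by 2.55-fold (2.37 to 2.74) in replicate 1 and by 2.65-fold (2.49 to 2.83) in replicate 2. Both directions held in each library and lay outside counting error. The ratio of Mir23a to Mir27a was 26.0 (24.4 to 27.7) in replicate 1 and 28.2 (26.7 to 29.9) in replicate 2. The ratio of Mir23b to Mir27b was 6.73 (6.46 to 7.01) and 7.82 (7.55 to 8.11). The clusters therefore differed in their miR-23 to miR-27 ratio by 3.86-fold (3.59 to 4.16) in replicate 1 and 3.61-fold (3.38 to 3.86) in replicate 2.

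The hairpins behind the miR-27 comparison are these, with the 3p product in capitals to show that the single differing base lies near its 3′ end.
Mir27a: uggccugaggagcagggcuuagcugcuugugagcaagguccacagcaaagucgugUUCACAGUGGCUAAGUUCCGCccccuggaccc
Mir27b: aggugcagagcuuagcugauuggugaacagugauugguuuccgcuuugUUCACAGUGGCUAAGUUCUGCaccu
The tables hold no read lengths, so the share of miR-27 reads that reach this base is not known here. Nor is the share of miR-23a-3p reads that reach the 19 bases found in Mir23a alone.

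For miR-24, Mir24-2 had 10.2-fold more counts than the strand of Mir24-1 in replicate 1 (7.71 to 13.8) and 7.62-fold more in replicate 2 (6.06 to 9.68). This ratio compares only reads that map to 1 place, which exclude the shared miR-24-3p, so it does not give the share of mature miR-24-3p from each locus. With counts regardless of strand, which add those of Mir3074-1 itself, it was 1.19 in replicate 1 and 0.988 in replicate 2. At the Mir3074-1 position the annotated minus strand held most of the counts. Mir3074-1 had 409 and 564 same-strand counts against 54 and 84 on the strand of Mir24-1, which is 7.57-fold more (5.69 to 10.3) in replicate 1 and 6.71-fold more (5.33 to 8.55) in replicate 2. The strand of Mir24-1 thus held 11.7% (8.88 to 14.9) and 12.96% (10.5 to 15.8) of the counts at this position. Reads of miR-24-3p and miR-3074-5p that fit both copies are missing from these counts. The strand ratio and share therefore do not give the amounts of small RNA made from each strand. Over all genes, opposite-strand counts made up 9.60% of the gene counts regardless of strand in replicate 1 and 10.2% in replicate 2. Most genes tested, however, had none. Of the 332 genes that reached the minimum of 10 counts in both libraries, 292 (88.0%) had none, and Mir3074-1 was 1 of 6 with at least 10 such counts in each library. The other 5 members had an opposite-strand count of 0 in both libraries, which allows up to 3 counts.

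Summed over its 3 genes, the chromosome 8 cluster had 12409 and 12133 CPM (12271 ± 195.6 CPM), and the chromosome 13 cluster 8903 and 9574 CPM (9238 ± 474.5 CPM). Their ratio was 1.39 (1.37 to 1.42) in replicate 1 and 1.27 (1.25 to 1.29) in replicate 2. The sum follows the miR-23 genes and does not describe miR-27, whose ratio lay on the other side of 1.

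**Figure D3:**
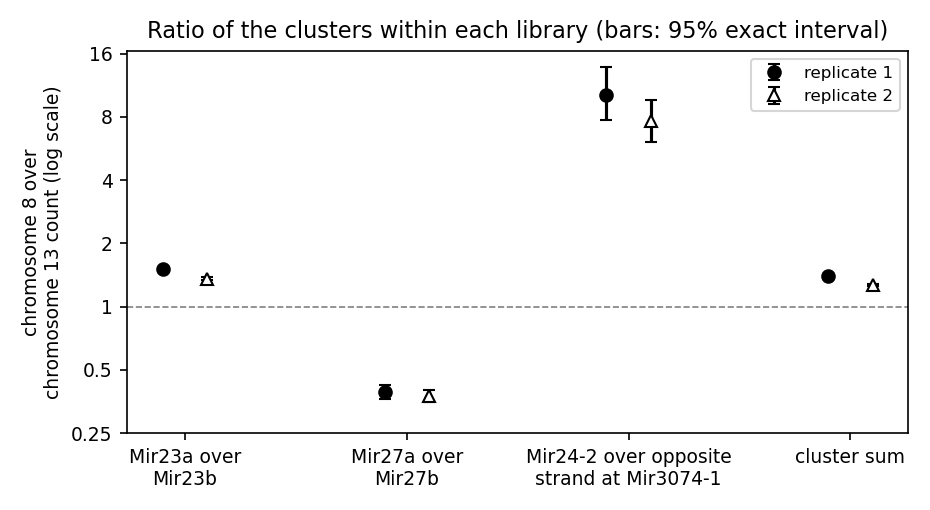
Ratio of the chromosome 8 to the chromosome 13 count within each library on a log axis, for each pair and for the cluster sums, with replicate 1 as filled circles, replicate 2 as open triangles and 95% exact intervals as bars; the dashed line marks a ratio of 1. The miR-23 pair and the sums lie above 1, the miR-27 pair lies below 1, and the miR-24 pair has ratios of 10.2 and 7.62.

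The third comparison asked how far the libraries of the 2 livers differed at these genes. Mir23b was higher in replicate 2, and the chromosome 8 genes Mir27a and Mir24-2 were slightly higher in replicate 1. Each gene's counts were set against the library totals in an exact binomial test (two-sided, Benjamini-Hochberg over the 332 genes). By it, 3 of the 6 genes differed at an adjusted p under 0.05, against 41.9% of all genes tested, so the count is near that of the whole table. The test compares these libraries, not conditions. For Mir23b the fold was 1.09, higher in replicate 2 (1.07 to 1.12 as the 95% exact interval; exact binomial adjusted p = 3.65e-20). Mir27a was 1.11-fold higher in replicate 1 (1.02 to 1.20; exact binomial adjusted p = 0.0382). Mir24-2 was 1.15-fold higher in replicate 1 (1.02 to 1.29; exact binomial adjusted p = 0.0495). Both of these calls were lost with a minimum of 1 count in each library (exact binomial adjusted p = 0.0580 for Mir27a and 0.0748 for Mir24-2), with no minimum (0.0734 and 0.0947) and with Mir122 left out of the totals (0.0816 and 0.0800). That of Mir24-2 was also lost when the two-sided p was taken as double the smaller tail, a setting tried only after these values were known.

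Mir23a and Mir27b did not pass. Mir23a was 1.02-fold higher in replicate 1 (1.00 to 1.03; exact binomial adjusted p = 0.0640) and Mir27b 1.06-fold (1.01 to 1.12; exact binomial adjusted p = 0.0504). Both passed by TMM and by DESeq2 scaling, in the same direction, which made 5 of 6 genes against 38.6% and 38.3% of all genes tested. Over all genes the balance moved as well, from 61 higher in replicate 1 and 78 in replicate 2 by library totals to 69 and 59 by TMM and 69 and 58 by DESeq2 size factors. Mir3074-1 had a ratio of 1.04 of replicate 2 over replicate 1 (0.911 to 1.18; exact binomial adjusted p = 0.749), so a difference of over 1.18-fold toward replicate 2 lay outside its interval. Its opposite-strand count had a ratio of 1.17 (0.821 to 1.68; unadjusted exact binomial p = 0.391) by same-strand totals.

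All of these differences were small. The log2 ratios of replicate 2 over replicate 1 ran from -0.20 for Mir24-2 to 0.13 for Mir23b, with a median of -0.06 over the 6 genes and a median size of 0.11. Over all 332 genes the median was 0.03, the median size 0.16 and the range -3.88 to 1.14.

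**Figure D4:**
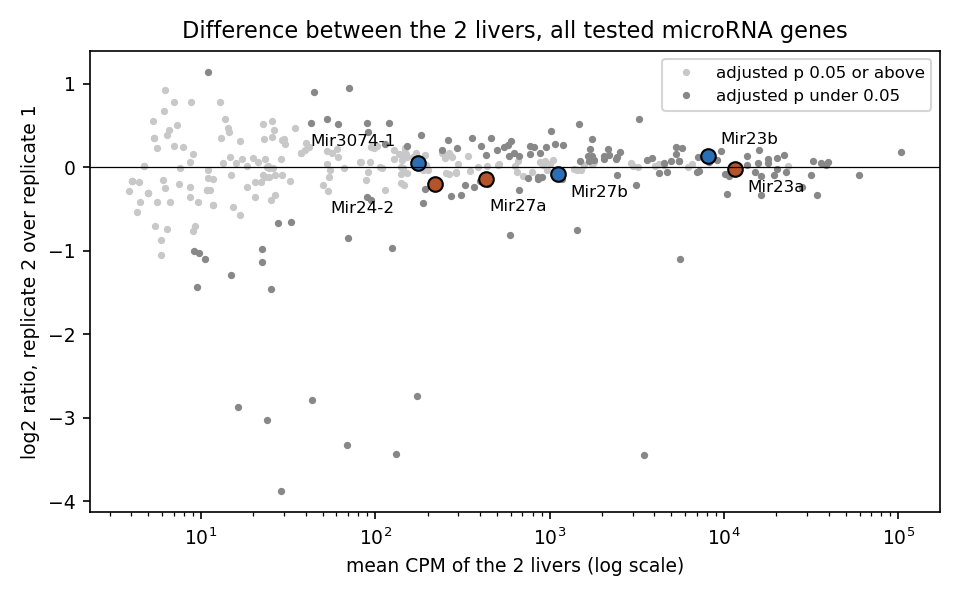
Log2 ratio of replicate 2 over replicate 1 (vertical axis) against mean CPM (log axis) for the 332 genes tested, with dark grey points at an adjusted p under 0.05, chromosome 8 genes in brown and chromosome 13 genes in blue. All 6 genes lie between -0.20 and 0.13, close to 0, while a few other genes reach below -3.

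The ratio between the clusters was also compared between these 2 libraries, against counting error only. By a two-sided Fisher exact test, adjusted over 4 such tests, the Mir23a to Mir23b ratio was 1.11-fold higher in replicate 1 (1.09 to 1.14; exact test adjusted p = 2.17e-17) and the ratio of the cluster sums 1.10-fold higher (1.07 to 1.13; exact test adjusted p = 2.4e-15). For Mir27a over Mir27b the factor was 1.04 (0.946 to 1.15; exact test adjusted p = 0.406). For Mir24-2 over the strand of Mir24-1 it was 1.34 (0.921 to 1.96; exact test adjusted p = 0.166), a wide interval set by the 54 and 84 counts.

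Marker microRNAs of several cell types also differed between the livers. The hepatocyte markers summed to 106480 CPM in replicate 1 against 120050 CPM in replicate 2, with 4 of 5 genes higher in replicate 2 by the test. Of 4 erythroid markers listed, Mir451a and Mir144 had a row, summed to 49613 and 39515 CPM and were both higher in replicate 1. The other 2, Mir486a and Mir486b, were not matched, and Mir486, looked up afterwards, had 404.9 and 515.5 CPM and was higher in replicate 2 (exact binomial adjusted p = 1.52e-08). The endothelial markers had 69650 and 65964 CPM, with 1 of 5, Mir126a, higher in replicate 1. Of 6 white cell markers listed, 4 had a row and summed to 12005 and 11393 CPM, with 1 higher in each library. The muscle markers had 310.5 and 276.4 CPM with Mir1a-1 and Mir133a-1 at 0. Of the 5 listed, 1 was called, Mir206, with 31.0 CPM in replicate 1 and 14.0 CPM in replicate 2 (exact binomial adjusted p = 0.000132). Of 8 neural markers listed, 7 had a row and summed to 408.3 and 155.1 CPM, with Mir124a-2, Mir124a-3 and Mir9-2 at 0. Only Mir137 of these was called, with 242.1 CPM in replicate 1 and 22.3 CPM in replicate 2. Mir9-3 was also lower in replicate 2, with 16.1 CPM in replicate 1 and 0.638 CPM in replicate 2. It fell below the count minimum in replicate 2, so its difference was not tested. Several markers are made by more than 1 locus, so these values are lower limits. The part of cell makeup in the differences of the cluster genes was not tested, and in whole tissue fewer cells of a type and less RNA per cell cannot be told apart.

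The other genes with a related seed or position added little. The seed of miR-24-3p, GGCUCAG, also occurs in miR-5124b, miR-6369, miR-6410 and miR-6413, and all 4 of their genes had 0 counts in both libraries, which allows up to 1.27 CPM in replicate 1 and 0.958 CPM in replicate 2. No mature product outside the clusters had the seed of miR-23a-3p, miR-27a-3p or miR-3074-5p. Within 100 kb of the chromosome 8 cluster, on the minus strand 29.6 kb before Mir23a, lies Mir181c, of the miR-181 family known from lymphocyte development. It had 1238 and 1120 CPM and was higher in replicate 1 (log2 ratio -0.14; exact binomial adjusted p = 0.000287). Its neighbour Mir181d had 785.1 and 715.3 CPM and was also higher in replicate 1 (log2 ratio -0.13; exact binomial adjusted p = 0.00912). Gm25110, 51.6 kb from the cluster, had 0 counts in both libraries. Of the 1894 genes of the tables with a matched position, no other lay within 100 kb of the chromosome 13 cluster. The unmatched genes could not be placed.

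The genes closest in level to each member, by Euclidean distance over log2(CPM + 1) in the 2 libraries, are given as a description of where the members stand. Nearest to Mir23a were Mir369 (distance 0.08) and Mir487b (0.09), and nearest to Mir23b was Mir18 (0.06), followed by Mir652 (0.25). Nearest to Mir27a were Mir196b (0.05) and Mir496a (0.07), and nearest to Mir27b were Mir181c (0.12) and Mir467d (0.18). Mir24-2 stood beside Mir7-1 (0.05) and Mir700 (0.20), and Mir3074-1 beside Mir500 (0.03) and Mir539 (0.04). With 2 libraries such likeness reflects mostly the level.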

How the data were processed

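The authors deposited raw, unnormalized read counts for each microRNA gene. Per the labels the assembly is mm10, and the deposited notes name annotation M4 and 1 alignment per library. Aligner, counter and trimming: not given in the sources used here. Each table gives a count regardless of strand, one on the gene's strand and one on the opposite strand. Of 6395680 and 8068090 reads, 2353946 and 3132763 were same-strand gene counts. Left out were the rows without a gene, namely multiply mapped reads, unmapped reads (18.6% and 17.7%) and reads in no gene of their strand. The last made up 10.6% and 10.4% and include reads on the strand opposite a gene. Symbols and positions came from GENCODE M21 (1894 of 1973 IDs matched), sequences from RefSeq.

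CPM used same-strand totals. The exact binomial test (scipy 1.17.1) needed a minimum of 10 counts per library. Log2 ratios had 0.5 added to each count, which understates differences of low genes. TMM came from edgeR 4.0.16 and size factors from DESeq2 1.42.0. The exact binomial test and the interval of a ratio were tried on simulated counts with counting error alone. The Fisher tests were not. The members and lists were chosen with earlier results of these data known. Genes named are the members, their nearest 2 genes by level, genes of the same seed or within 100 kb, the highest gene and up to 3 genes per marker list. Alternatives were other scalings, totals, count minimums (1, 100 or none), pseudocounts (0.1, 10), counts regardless of strand, cluster sums without the miR-24 genes and leaving out each replicate.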

Additional observations from a re-analysis of the deposited data

How the results depend on the processing

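The miR-23 and miR-27 pair ratios had the same direction in each library alone. Strand and pseudocount could not move them, since these genes had no opposite-strand counts and at least 1062 counts each. With counts regardless of strand the ratio of Mir24-2 to the Mir3074-1 position fell from a mean of 8.91 to 1.09, since that count adds the reads of Mir3074-1 itself. The cluster ratio, 1.33 as a mean of the libraries, ranged from 1.27 to 1.39 with each replicate left out. The number of cluster genes that differed between the livers was 3, against 139 of all 332 genes tested. It was 5 by TMM (128 of 332 genes called) and by DESeq2 size factors (127 of 332). With at least 100 counts in each library (130 of 215) and with counts regardless of strand (147 of 345) it was also 5. With at least 1 count in each library (141 of 542) and with no filter (139 of 700) it was 1, Mir23b. The same held with the total taken without the highest gene (147 of 332). The cause was not tested beyond the changed number of genes or total in each. The number was 2 with p as double the smaller tail (136 of 332 genes called). Mir23b passed in all of these. Of 129 alternative values, which include levels and ratios without a call, none reversed the direction of a difference between the livers. In 8 a difference came to pass the threshold and in 7 it no longer did. Levels in CPM moved by more than their SD when the total changed. Depth limits the strand of Mir24-1 most, with 54 and 84 counts. No paired analysis was possible because there is only 1 group.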

Other observations

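Other duplicated microRNA clusters give a scale for the ratios between copies, again by reads that map to 1 place. Mir29a and Mir29b-1 together had 7.14-fold the counts of Mir29c and Mir29b-2 in replicate 1 (95% exact interval 6.36 to 8.03) and 7.30-fold in replicate 2 (6.61 to 8.08). Mir15b and Mir16-2 had 0.352 (0.347 to 0.358) and 0.370 (0.365 to 0.376) of the counts of Mir15a and Mir16-1. Mir106b, Mir93 and Mir25 had 0.422 (0.418 to 0.426) and 0.388 (0.384 to 0.391) of the counts of the 6 genes from Mir17 to Mir92-1, with miR-18a under its annotation symbol Mir18. The unduplicated pair Mir221 and Mir222 had a ratio of 1.87 (1.72 to 2.03) and 1.85 (1.72 to 2.00). The ratio in replicate 1 over that in replicate 2 was 1.09 (1.08 to 1.10) for Mir106b, Mir93 and Mir25 to the 6 genes and 0.952 (0.931 to 0.973) for Mir15b and Mir16-2 to Mir15a and Mir16-1. It was 0.978 (0.838 to 1.14) for the Mir29 clusters and 1.01 (0.900 to 1.13) for Mir221 to Mir222. For the miR-23/27/24 clusters it was 1.10 (1.07 to 1.13).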
